A study of Mus musculus with 16 samples.

Results

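The RNA of MLL-AF9 leukemia cells of the control genotype at 20% oxygen was described from the 4 libraries of that group, out of 16 libraries in the series. These 4 were taken by their labels alone, and no other group entered. MLL-AF9 is a fusion of the chromatin regulator MLL with AF9 that transforms myeloid progenitors, and the mouse acute myeloid leukemia (AML) line that carries it was grown in RPMI with FBS, interleukin 3 (IL-3) and stem cell factor (SCF). In the control group CRISPR-Cas9 had been combined with a gRNA that has no target, whereas MCT4-KO cells, not analysed here, had lost MCT4, the exporter of lactate and protons encoded by Slc16a3. Both genotypes were kept at 20% or 2% oxygen. For every library the labels list induction of Cas9 with 4-OHT (4-hydroxytamoxifen), and they do not say separately whether the controls received it. Nothing in the labels tells if the 4 numbered replicates come from different cultures, or if the line is 1 clone, so the spread between libraries may be technical.

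In leukemias with an MLL fusion the fusion protein keeps the late genes of the Hoxa cluster and their cofactor Meis1 switched on, which in normal blood belong to stem cells and early progenitors. A granulocyte and monocyte progenitor then makes its granules in order: the primary granules of the promyelocyte hold Mpo, Elane, Prtn3 and Ctsg, and the secondary granules of later neutrophils hold Ltf, Lcn2 and Camp. Most enzymes, receptors and transcription factors exist as families of paralogues, copies that arose by duplication, and a cell type is marked by which copy it uses.

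Levels are per-length shares of the transcripts (TPM), computed here from the estimated counts and a length for each gene so that a library sums to 1000000, and are given as mean ± SD over n = 4 libraries. A gene is called expressed at 1 TPM or more in all 4 libraries, and at the floor with at most 3 counts in every library. A family has a clear leader where the lowest library of its most abundant member lies above the highest library of the next. Paralogues were not tested against each other, since an exact two-sided sign-flip test over 4 libraries cannot give a p below 0.125. The libraries held 21192179 to 25039672 estimated counts, and a floor of 3 counts was 0.127 CPM on average (counts for each 1000000 of the library), so a gene at the floor was not detectable above that limit, which covers counting error only. No spike-in is described, so every level is a share of the RNA sequenced.

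Some sequences decide how far a level can be trusted, because reads can be assigned only where copies differ. Ly6c2, the most abundant of the marker genes, has a close copy, Ly6c1, 1 gene of the same cluster on chromosome 15. Their coding sequences of 393 bases differ at 9 positions, of which 6 lie in the first 150 bases, printed here from the GENCODE transcripts with the differing bases in capitals.
Ly6c2: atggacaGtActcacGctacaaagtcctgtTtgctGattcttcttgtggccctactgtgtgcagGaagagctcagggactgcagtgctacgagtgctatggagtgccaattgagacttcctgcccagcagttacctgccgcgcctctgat
Ly6c1: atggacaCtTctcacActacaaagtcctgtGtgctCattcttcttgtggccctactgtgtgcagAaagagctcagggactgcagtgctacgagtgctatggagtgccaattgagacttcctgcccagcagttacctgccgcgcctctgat
Ly6c2 lies at chr15:75108158-75111970 and Ly6c1 at chr15:75044018-75048830 of GRCm38, both on the minus strand. Of the 50-base words of the Ly6c2 transcripts 13.9% also occur in Ly6c1. Ly6c2 stood at 2948 ± 32.7 TPM and Ly6c1 at 18.0 ± 2.28 TPM. In the granule genes less is shared: of the words of Ctsg and Elane 0% recur in another gene, of those of Prtn3 6.45% and of those of Mpo 9.46%. The 250 bases before the RefSeq start of 4 primary granule genes and 2 secondary granule genes are shown for GRCm38.p6, 5′ to 3′ on the strand of the gene, since the first list was expressed as a whole and the second in part. Capitals mark 3 motifs searched on both strands: GAGGAA, a core bound by PU.1, TTNNGCAA, a form of the C/EBP site, and TAACNG, the Myb core. No capitals of different motifs overlap in these windows.
Ctsg: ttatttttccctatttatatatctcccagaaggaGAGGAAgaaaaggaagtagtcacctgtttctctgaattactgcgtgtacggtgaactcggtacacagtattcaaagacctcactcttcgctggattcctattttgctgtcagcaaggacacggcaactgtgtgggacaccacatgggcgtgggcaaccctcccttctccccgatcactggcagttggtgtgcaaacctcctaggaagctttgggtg
Elane: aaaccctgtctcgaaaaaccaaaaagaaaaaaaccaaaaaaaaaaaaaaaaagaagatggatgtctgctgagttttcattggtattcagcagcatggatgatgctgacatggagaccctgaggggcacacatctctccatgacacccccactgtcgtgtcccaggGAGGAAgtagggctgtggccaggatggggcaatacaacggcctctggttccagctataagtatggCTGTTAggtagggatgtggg
Prtn3: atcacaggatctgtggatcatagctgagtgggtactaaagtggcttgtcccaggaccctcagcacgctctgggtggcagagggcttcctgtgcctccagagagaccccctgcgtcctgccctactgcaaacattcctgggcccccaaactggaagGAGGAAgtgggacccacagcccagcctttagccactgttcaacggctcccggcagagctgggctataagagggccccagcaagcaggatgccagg
Mpo: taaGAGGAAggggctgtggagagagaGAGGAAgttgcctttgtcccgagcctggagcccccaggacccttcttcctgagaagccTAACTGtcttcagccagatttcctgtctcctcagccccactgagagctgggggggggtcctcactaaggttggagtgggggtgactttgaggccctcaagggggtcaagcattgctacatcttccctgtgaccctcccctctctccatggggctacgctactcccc
Lcn2: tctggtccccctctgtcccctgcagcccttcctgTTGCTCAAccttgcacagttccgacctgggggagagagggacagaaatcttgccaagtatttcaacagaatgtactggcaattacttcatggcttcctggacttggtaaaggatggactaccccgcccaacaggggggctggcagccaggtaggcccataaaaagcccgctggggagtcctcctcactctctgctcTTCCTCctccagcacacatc
Ltf: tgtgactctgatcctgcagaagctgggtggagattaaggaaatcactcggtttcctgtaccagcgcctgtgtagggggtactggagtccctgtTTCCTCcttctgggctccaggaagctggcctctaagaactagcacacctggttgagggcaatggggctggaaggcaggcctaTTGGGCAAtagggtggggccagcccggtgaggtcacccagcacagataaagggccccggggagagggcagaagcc
These windows are chr14:56102575-56102824 for Ctsg on the minus strand, chr10:79886062-79886311 for Elane, chr10:79879417-79879666 for Prtn3 and chr11:87793534-87793783 for Mpo on the plus strand, chr2:32387740-32387989 for Lcn2 on the minus strand and chr9:111019042-111019291 for Ltf on the plus strand. The gene spans given in the text are those of GENCODE, which take in every transcript and begin upstream of the RefSeq start in 5 of the 6 genes. All 250 bases of the Prtn3 and Lcn2 windows, 203 of Mpo, 65 of Elane and 21 of Ltf therefore lie inside the GENCODE spans, and 0 of Ctsg. GAGGAA was present in 23.1% of 27025 such windows, in 5 of 9 primary granule genes with a window and in 8 of 13 of the secondary list. TTNNGCAA was present in 9.55% of all windows, in 0 of the 9 and in 7 of the 13. TAACNG was present in 19.8% of all windows, in 2 of the 9 and in 2 of the 13. These matches are letters in a window and say nothing on whether a factor binds there.

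The 4 libraries were much alike. Across nuclear coding genes with a mean of 5 TPM or more, their log2 levels correlated pairwise at 0.9965 to 0.9982. The biological coefficient of variation was 5.15%. Of 21890 protein-coding genes 10463 were expressed, which is 47.8%, and 9045 stood at the floor, which is 41.3%. Of the expressed genes 6323 lay at 10 to 100 TPM, 1500 at 100 to 1000 TPM and 127 above that, around a median of 27.2 TPM, with a median coefficient of variation of 5.41% between libraries.

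The most abundant RNAs were those of the translation machinery. Eef1a1, the factor that brings aminoacyl-tRNA to the ribosome, led with 17360.3, 17157, 16399 and 17216 TPM in replicates 1 to 4, a mean of 17033 ± 431 TPM. All 4 libraries lay close together, and the lowest of them was above the highest level of Rpl13a, the next gene, which stood at 6940.0 ± 277 TPM. Of the 30 most abundant nuclear coding genes 26 coded for ribosomal proteins, among them Rplp0 at 6094 ± 285 TPM, Rplp1 at 6035 ± 277 TPM, Rps18 at 5403 ± 177 TPM and Rps7 at 5169 ± 353 TPM. The count takes in Rps12-ps3, a copy of a ribosomal protein gene that the annotation lists as coding. The other 4 were Eef1a1, Ptma, Eef2 and Ftl1. Ptma, the acidic nuclear protein prothymosin alpha, was at 4342 ± 104 TPM, Eef2, which moves the ribosome along the mRNA, at 4292 ± 192 TPM and Ftl1, the ferritin light chain that stores iron, at 4060.2 ± 171 TPM. The 85 genes of the cytosolic ribosome held 20.6 ± 0.620% of all TPM and 9.48 ± 0.442% of the counts. Of all genes 354 held 50% of the TPM. Many of the leading genes have processed copies elsewhere in the genome: 58% of the words of Ftl1, 60% of those of Rplp1 and 40% of those of Eef1a1 recur in another gene, so their levels are uncertain.

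Long noncoding RNA was led by the hosts of small nucleolar RNAs, whose introns carry the guides that modify ribosomal RNA. Gas5 stood at 1501 ± 122 TPM, Snhg1 at 945 ± 19.6 TPM, Zfas1 at 417 ± 20.96 TPM, Snhg5 at 339 ± 11.0 TPM and Snhg12 at 332 ± 14.7 TPM. The 9397 long noncoding genes together held 1.66 ± 0.0376% of the TPM, and the 5 named were the most abundant of them.

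**Figure D1:**
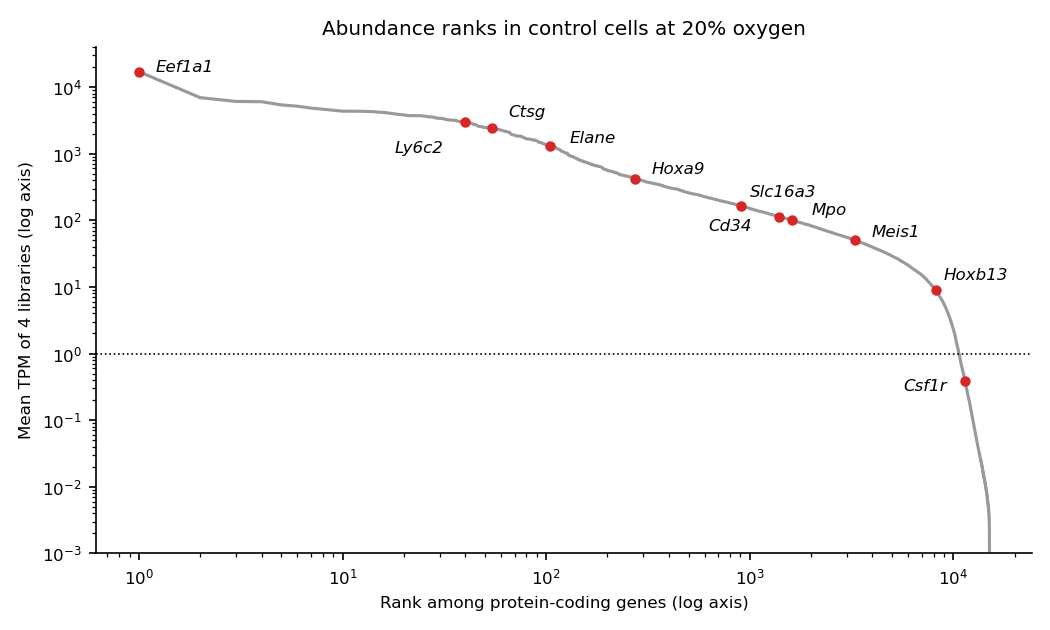
Mean TPM of each protein-coding gene detected in the 4 control libraries at 20% oxygen, against its rank, both on log axes, with 11 genes marked and the limit of 1 TPM dotted. Eef1a1 leads, Ly6c2 is at rank 40, Hoxa9 at rank 274 and Meis1 at rank 3290, and Csf1r lies below 1 TPM.

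All 6 genes given as marks of these cells were expressed. Ly6c2, a surface protein of monocytes and their progenitors, was at 2979.5, 2971, 2912 and 2929 TPM in replicates 1 to 4 and at rank 40 of the coding genes. Elane, neutrophil elastase (chr10:79886247-79888215), was at 1299, 1321, 1251 and 1409.5 TPM and rank 104. Hoxa9, the homeobox factor needed by MLL leukemias (chr6:52223100-52231089), was at 410.3, 411, 422 and 409 TPM and rank 274. These 3 ranges did not overlap each other, and within each the libraries lay close together. Cd34, a surface sialomucin of progenitors (chr1:194938819-194961279), was at 120.5, 109, 105 and 120.1 TPM. Mpo, myeloperoxidase (chr11:87793581-87804413), was at 91.5, 98.2, 95.6 and 118 TPM. Their ranges overlapped, but Cd34 lay above Mpo within each library. Whether this order holds with another gene length was not tested. Meis1, the Hox cofactor (chr11:18879817-19018985), was the lowest of the 6, at 47.4, 49.3, 53.1 and 51.4 TPM and rank 3290, and all of its libraries lay below all of those of Mpo.

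The fusion program was present almost as a whole. Of 17 genes known as targets or partners of MLL fusions 16 were expressed, or 94.1%, against 47.8% of all coding genes. Their median was 100.1 TPM, against 0.669 TPM over all coding genes. The list was chosen with earlier results of these data known, so this share is not independent of the data. The program held Hoxa10 at 436 ± 15.3 TPM, Hoxa9 at 413 ± 6.03 TPM and Lmo2, an adaptor that bridges blood transcription factors, at 387 ± 6.02 TPM. Eya1, a transcriptional coactivator, was at 28.9 ± 1.49 TPM. Only Mecom missed the limit, at 0.786, 0.955, 1.11 and 0.887 TPM, a zinc finger factor of stem cells whose 4 libraries fell on both sides of 1 TPM.

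Of 17 stem cell genes 9 were expressed, or 52.9%, a share near the 47.8% of all coding genes, and the median was 4.27 TPM. Thy1, a surface glycoprotein, was the highest at 125 ± 13.2 TPM, and Kit, the receptor for SCF, stood at 75.9 ± 4.42 TPM. Ly6a, the antigen known as Sca-1, was at 0.853, 0.814, 0.691 and 1.08 TPM and was not expressed by the rule. Procr and Fgd5, both marks of long-term stem cells, were at the floor.

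Primary granule genes were all on: 11 of 11 were expressed, against 47.8% of all coding genes. Their median was 374 TPM and their sum 6903 ± 258 TPM. This list, too, was chosen with earlier results of these data known. Ctsg, the protease cathepsin G, was the highest at 2498, 2533, 2282 and 2283 TPM. Srgn, the proteoglycan that packs granule proteases, was at 1439, 1435, 1318 and 1296 TPM. The libraries of Ctsg were all above those of Srgn, and those of Srgn and Elane overlapped. Prtn3, proteinase 3, stood at 742 ± 36.3 TPM. Mpo, at 101 ± 11.9 TPM, lay below these proteases in every library, since its highest library was at 118 TPM and the lowest of Prtn3 at 694 TPM.

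The secondary granule and mature neutrophil genes had 6 of 15 members expressed, or 40%, against 47.8% of all coding genes, and a median of 1.15 TPM against 0.669 TPM. Lcn2, lipocalin 2, which binds bacterial siderophores, was the highest at 184, 216, 219 and 171 TPM, and Cebpe, the factor of late granule genes, was at 53.5 ± 3.80 TPM. Below them the list dropped to Ly6g, a surface antigen of neutrophils, at 3.98 ± 0.705 TPM and Mmp9, gelatinase B, at 2.47 ± 0.441 TPM. S100a8 and S100a9, which make up calprotectin and dominate the RNA of mature neutrophils, held only 1.91 ± 0.272 and 1.59 ± 0.831 TPM. Ltf, lactoferrin, had 1, 0, 4 and 0 counts in replicates 1 to 4. Camp, Chil3, Retnlg and Olfm4 were at the floor.

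Of 20 genes of monocytes and macrophages 12 were expressed, or 60%, against 47.8% of all coding genes, with a median of 1.93 TPM. Ly6c2 led, followed by Itgam, the integrin alpha chain of CD11b, at 127 ± 6.94 TPM, Lyz2, lysozyme, at 106 ± 6.92 TPM and Irf8, a factor of monocyte fate, at 61.1 ± 1.93 TPM. Of the words of Itgam 66% recur in a read-through gene, which itself stood at 0.718 TPM. Csf1r, the receptor for the macrophage growth factor, was at 0.371, 0.327, 0.474 and 0.384 TPM from 21, 20, 24 and 23 counts, below the limit in all 4 libraries. Cx3cr1 and Marco, genes of monocytes and macrophages, were at the floor. In RNA from a whole culture, fewer cells of a type and less RNA per cell cannot be told apart.

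Of 12 genes of dendritic cells and MHC class II 6 were expressed, or 50%, a share near the 47.8% of all coding genes. Their median was 1.46 TPM. The RNA levels of H2-Ab1 and H2-Aa were uneven. H2-Ab1, a beta chain of MHC class II, was at 55.4 ± 4.89 TPM, whereas H2-Aa, the alpha chain it pairs with, was at 4.21 ± 0.589 TPM. Bst2, an interferon-induced antiviral protein, was at 61.1 ± 2.78 TPM and Tcf4, a factor of plasmacytoid dendritic cells, at 18.3 ± 1.67 TPM. Siglech, Xcr1, Batf3 and Zbtb46, which define dendritic cell types, were at the floor.

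Of the mast cell and basophil list 3 of 10 genes were expressed. Hdc, which makes histamine, was at 24.4 ± 2.02 TPM, the basophil protease Mcpt8 at 20.2 ± 2.24 TPM and Ms4a2, a chain of the IgE receptor, at 5.82 ± 0.835 TPM. The chain that binds IgE, Fcer1a, had 0 counts in every library, as did the mast cell proteases Mcpt4, Cma1, Tpsb2 and Tpsab1. Of the T cell list 2 of 10 were expressed: the kinase Lck at 29.4 ± 2.08 TPM and the factor Bcl11b at 4.24 ± 0.545 TPM, beside 0 counts for Cd3e, Cd3g and Cd4. Of the eosinophil list 2 of 10 were expressed, Alox15 at 2.31 ± 0.272 TPM and Siglecf at 1.95 ± 0.267 TPM, and the granule genes Epx and Prg2 had 0 counts. Of 11 erythroid genes 1 was expressed, the factor Klf1 at 1.74 ± 0.264 TPM. The mast cell, T cell, eosinophil and erythroid lists thus had 30%, 20%, 20% and 9.09% expressed, against 47.8% of all coding genes.

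No gene of the megakaryocyte, B cell, NK cell or stroma lists was expressed. The highest of them were Prf1, perforin, at 1.12 ± 0.180 TPM, Ppbp, a platelet chemokine, at 1.01 ± 0.429 TPM and Vpreb1, part of the pre-B receptor, at 0.909 ± 0.378 TPM. Pax5, Ebf1, Ncr1, Gzma, Gzmb, Cdh5, Kdr and Col1a2 had 0 counts in every library. Over the 14 cell type lists 68 of 169 different genes were expressed, against 47.8% of all coding genes. Of 13 immediate early genes, which answer to growth factors and stress, 10 were expressed, or 76.9%, against 47.8% of all coding genes. Their median was 8.37 TPM, and Ier2 at 167 ± 6.59 TPM and Junb at 124 ± 3.76 TPM led them. Xist, the RNA that silences an X chromosome in females, had 0 counts, and the Y-linked Eif2s3y stood at 83.4 ± 2.96 TPM and Ddx3y at 37.9 ± 1.77 TPM.

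**Figure D2:**
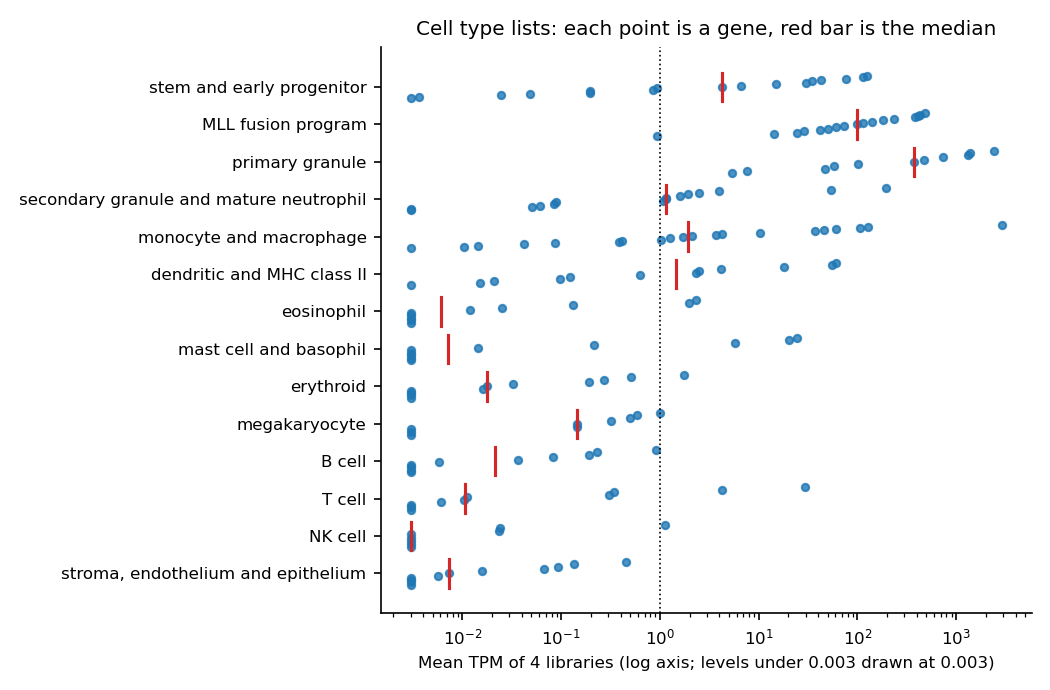
Mean TPM over 4 libraries of each member of 14 cell type lists, on a log axis, with the list median as a red bar and 1 TPM dotted. The fusion program and the primary granule list lie to the right of 1 TPM apart from Mecom. The medians of the stem cell, monocyte, dendritic and secondary granule lists lie between 1.15 and 4.27 TPM, and those of the remaining lists below 1 TPM.

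Among 113 families of paralogues 104 had a clear leader, and in 34 that leader held over 90% of the family's TPM in every library. Of their 568 members 327 were expressed and 150 were at the floor. The lists were chosen for genes known in blood or metabolism, so their 57.6% of expressed members is not comparable with the 47.8% of all coding genes. The same holds for counts within single families and for the floor, where 41.3% of all coding genes stood. In 4 families no member was expressed: the arginases, the creatine kinases, the Hoxc cluster and the Hoxd cluster. The size of a lead depended on the gene length. Of 89 log2 ratios of a leader over the next member, 62 moved by more than 1.5 times in fold with the summed exons, the longest transcript or no length, and of 54 leads of at least 2-fold 13 fell below it. Where a named lead fell below it or turned, the length is given beside it.

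Of 9 Hox genes expressed 8 belonged to the Hoxa cluster. Hoxa genes have roles along the body axis and, in blood, in keeping progenitors immature. Of the 11 Hoxa genes, Hoxa10 was at 416, 435, 453 and 438 TPM in replicates 1 to 4 and Hoxa9 at 410.3, 411, 422 and 409 TPM. Their ranges overlapped, so Hoxa10 was not a clear leader by the rule, but it lay above Hoxa9 within each library. Its mean was also the higher with other lengths. It was 448 against 253 TPM with the summed exons, 394 against 303 TPM with the longest transcript and 494 against 477 CPM without length. Hoxa11 followed at 209 ± 2.99 TPM, but 33% of its words recur in the antisense gene Hoxa11os, and without the strand setting of the counting its reads cannot be told from those of that gene. Hoxa7 stood at 100.1 ± 3.49 TPM and Hoxa5 at 24.3 ± 2.18 TPM, while Hoxa13, at the 5′ end of the cluster, was at the floor. Of 10 Hoxb genes only Hoxb13 was expressed, at 8.67, 8.87, 8.40 and 9.83 TPM, a gene known from the prostate and the tail end of the body. Hoxb4, a factor of stem cells, was next at 0.474 ± 0.111 TPM. Of 9 Hoxc genes 8 were at the floor and of 9 Hoxd genes all 9 had 0 counts in every library.

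**Figure D3:**
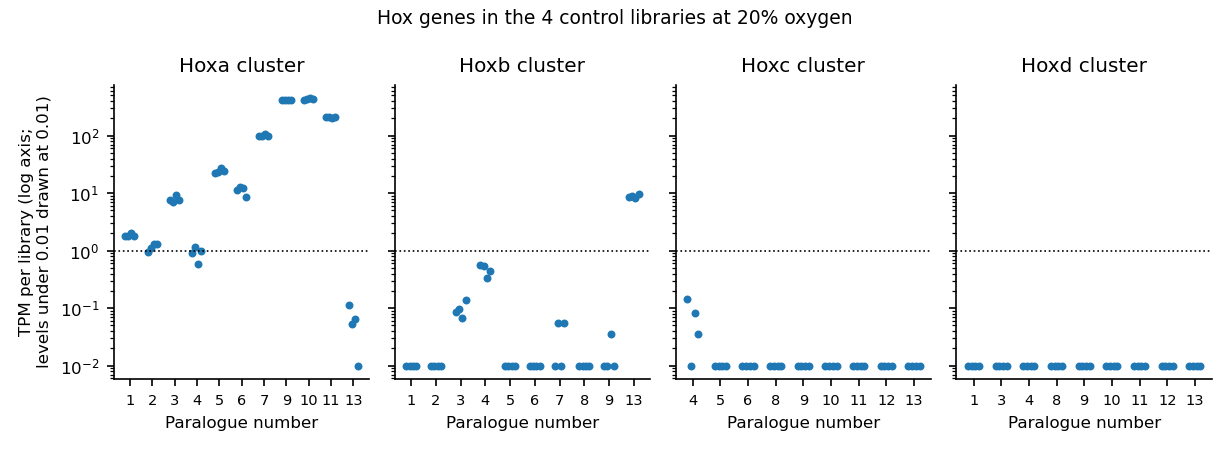
TPM of each Hox gene in each of the 4 libraries, on a log axis, by cluster and paralogue number, with 1 TPM dotted. Hoxa9 and Hoxa10 stand highest, Hoxb13 is the single Hoxb gene above the line, and no Hoxc or Hoxd gene reaches it.

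The Hox cofactors had 1 leader each. Meis1 held 92.1 ± 0.87% of the Meis family, above Meis3 at 4.22 ± 0.502 TPM, and Pbx3, at 115 ± 4.59 TPM, led Pbx2 at 47.2 ± 0.746 TPM, by 1.28 in log2 and 0.95 with the summed exons. Among core binding factors Runx2, known from bone, was at 172, 168, 196 and 195 TPM. Runx3 was at 58.2 ± 3.38 TPM and Runx1, the factor that founds blood stem cells, at 14.2, 14.0, 16.5 and 17.0 TPM. The 3 ranges did not overlap, so Runx1 was the lowest of its family per median length. Its place with another length was not tested. The log2 lead of Runx2 over Runx3, 1.65, was 0.52 with the summed exons and 0.61 with the longest transcript.

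The granulocyte and monocyte factors were abundant. Cebpb was at 448, 437, 453 and 436 TPM and Cebpa at 449.9, 446, 432 and 444 TPM, so the factor of emergency granulopoiesis and the factor that founds the granulocyte lineage overlapped and neither led. All 5 C/EBP factors were expressed. Spi1, which encodes PU.1, was at 182 ± 2.49 TPM and held 99.9% of its family, and Gfi1, a repressor needed by neutrophils, was at 202 ± 4.85 TPM, with Gfi1b, its erythroid copy, at the floor. Gata2, a factor of progenitors and mast cells, was at 34.8 ± 0.745 TPM and held 98.6 ± 0.46% of the GATA family. Gata1 reached 0.190 ± 0.160 TPM, and Gata4, Gata5 and Gata6 had 0 counts. Of the Tal family Lyl1 was at 303, 321, 310.0 and 319 TPM while Tal1, the copy that stem cells and red cells use, was at 0, 0.0947, 0.0228 and 0.0193 TPM. Lmo2, the adaptor of that family, led Lmo4 with 387 ± 6.02 against 252 ± 11.97 TPM. Nfe2, known from platelets, was at 545 ± 5.75 TPM and led Nfe2l1 at 207 ± 3.61 TPM, a log2 lead of 1.399 that was 0.21 without length.

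In several families of general factors 1 copy held most of the RNA. Myc stood at 402, 403, 442 and 426 TPM, and Mycn and Mycl had 0 counts in every library. Hif1a, the oxygen-regulated HIF subunit, was at 124, 122, 141 and 135 TPM and held 99.6 ± 0.037% of its family, with Epas1, which encodes HIF-2 alpha, at 0.295 ± 0.0626 TPM. Id1, an inhibitor of helix-loop-helix factors, was at 166 ± 6.14 TPM, Id2 at 2.17 ± 0.451 TPM and Id3 and Id4 at 0 counts. Trp53 stood at 167 ± 8.56 TPM, with Trp73 at the floor. Klf13 held 70.5 ± 0.81% of the KLF family with 349 ± 23.9 TPM, before Klf3 at 26.8 ± 2.30 TPM. Its share rested on the length, at 20.6% with the summed exons or the longest transcript and 28.6% without length, where its log2 lead over Klf3 of 3.70 became 1.78, 0.91 and 1.201. Ikzf1, Ikaros, held 88.5 ± 0.046% of its family with 315 ± 17.9 TPM. Tfec led the MiT/TFE family at 102 ± 2.32 TPM over Tfe3 at 16.1 ± 0.793 TPM. Jund, at 310.2 ± 2.68 TPM, led Junb at 124 ± 3.76 TPM, but 48% of its words are shared with an antisense gene.

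Other families were spread over several members. All 7 STAT factors were expressed, with Stat6 at 75.7 ± 4.62 TPM ahead of Stat3 at 44.9 ± 2.88 TPM, and all 8 E2F factors, with E2f4 at 95.7 ± 1.85 TPM ahead of E2f6 at 54.5 ± 2.51 TPM. Elf1, at 119 ± 10.01 TPM, led Ets1, at 88.8 ± 4.92 TPM, among 8 further ETS factors, all expressed. The order of Irf2 at 68.0 ± 3.82 TPM and Irf8 at 61.1 ± 1.93 TPM, of Mef2c at 60.6 ± 5.31 TPM and Mef2d at 44.5 ± 3.63 TPM and of Nfkb1 at 97.6 ± 4.35 TPM and Rela at 79.1 ± 4.63 TPM turned with another gene length. Among the retinoblastoma proteins Rbl1, at 35.2 ± 2.32 TPM, and Rb1, at 29.9 ± 2.86 TPM, overlapped. For DNA methylation Dnmt1, the maintenance enzyme, was at 85.0 ± 9.21 TPM, and the next was Dnmt3l, a cofactor known from germ cells, at 27.2, 25.6, 24.9 and 25.6 TPM. The log2 lead of Dnmt1 over Dnmt3l was 1.71 per median length and 3.52 without length. Whether Dnmt3l stays next with another length was not tested. Tet3 led Tet2 with 27.2 ± 1.98 against 8.78 ± 1.05 TPM.

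Both growth factors in the medium had their receptors. Kit, the SCF receptor, was at 75.5, 70.0, 78.1 and 80.2 TPM and held 82.9 ± 0.36% of its family of receptor tyrosine kinases, above Flt3 at 14.8 ± 0.664 TPM. Il3ra, the chain that binds IL-3, was at 141, 147, 137 and 144 TPM, and Csf2rb, the signalling chain shared with the receptors for IL-5 and GM-CSF, at 93.1, 90.2, 93.6 and 99.4 TPM. Their order turned with another gene length, so neither leads firmly. Csf2ra, the chain for GM-CSF, was expressed at 66.6 ± 3.77 TPM, and Il5ra, the chain for IL-5, was at the floor. Csf3r, the receptor for G-CSF, was at 17.8 ± 0.976 TPM and above Ghr, the growth hormone receptor, at 11.1 ± 1.04 TPM, with Prlr at 0 counts.

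Ifngr1, the ligand-binding chain for interferon gamma, stood at 375 ± 17.6 TPM before Ifnar2 at 92.8 ± 2.89 TPM, and Ifnlr1, the chain for interferon lambda, had 0 counts. Il2rg, the common gamma chain, was at 78.6 ± 1.22 TPM and Il4ra at 21.4 ± 1.28 TPM, with Il7r, Il9r and Il2rb at the floor. The log2 lead of Il2rg over Il4ra was 1.88 per length and 0.22 without length. Of the receptors that use gp130 the leader was Il11ra1 at 18.4 ± 1.29 TPM, whose words recur to 46% in a copy, before Il6st, gp130 itself, at 10.5 ± 0.389 TPM, a log2 lead of 0.81 that was 2.37 with the longest transcript and 0.26 without length. Tnfrsf1a, at 70.9 ± 1.62 TPM, and Ltbr, at 65.6 ± 3.13 TPM, were close, with a log2 difference of 0.11. Tgfbr1, the type I receptor for TGF-beta, was at 66.5 ± 2.35 TPM before Acvr1b at 12.1 ± 0.397 TPM, a log2 lead of 2.46 that fell to 0.98 with the summed exons, and the BMP receptor Bmpr1b had 0 counts.

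For pathogens and antibodies, Tlr4, the sensor of lipopolysaccharide, held 81.9 ± 0.53% of the Toll-like receptors with 74.4 ± 3.28 TPM, before Tlr2 at 6.63 ± 0.514 TPM, and Tlr3, Tlr8, Tlr11 and Tlr12 were at the floor. Fcgr3, an activating antibody receptor, was at 173 ± 3.85 TPM and Fcgr2b, the inhibitory one, at 69.4 ± 3.20 TPM. Cxcr4, the receptor for the marrow chemokine Cxcl12, was at 132, 116, 108 and 135 TPM and Ccr2, the receptor that calls monocytes out of the marrow, at 46.2 ± 3.98 TPM, a log2 lead of 1.41 that was 0.55 without length. Of 18 chemokine receptors 10 were at the floor, Cxcr1, Cxcr3, Ccr6 and Ccr8 among them, beside 41.3% of all coding genes. For adhesion, Itga6 at 238 ± 11.2 TPM led the alpha chains over Itgam, by 0.91 in log2 but 0.08 with the summed exons, and Itgb2 at 243 ± 11.9 TPM led the beta chains over Itgb1 at 152 ± 3.59 TPM.

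Of the receptors that sense the surroundings some were expressed and others stood at the floor. Gpr132 was at 34.7 ± 1.71 TPM and Gpr65 at 11.2 ± 0.381 TPM, both counted as proton sensors, and Gpr4 was at the floor. Adora2a, an adenosine receptor, was at 5.14 ± 0.382 TPM, above Adora2b at 3.36 ± 0.597 TPM. Flt1 was the single VEGF receptor expressed, at 14.1 ± 1.48 TPM. S1pr4 at 14.2 ± 1.72 TPM stood above S1pr3 at 8.57 ± 0.456 TPM per length but not in counts, and S1pr1, which guides lymphocytes out of organs, had 0 counts. Notch2 at 15.7 ± 1.85 TPM and Notch1 at 11.8 ± 1.23 TPM overlapped, as did Insr at 16.8 ± 1.62 TPM and Igf1r at 13.8 ± 1.76 TPM. Fzd8, a Wnt receptor, was at 15.8 ± 0.701 TPM and ahead of Fzd1 at 11.2 ± 0.909 TPM.

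Of the nuclear receptors 1 copy per family tended to stand out. Rxrb, a partner of many nuclear receptors, was at 102, 104, 96.1 and 101 TPM and held 99.6 ± 0.094% of its family. Rxra, the copy known from liver, was at 0.396, 0.377, 0.455 and 0.248 TPM and Rxrg had 0 counts. Rarg at 36.9 ± 2.13 TPM led Rara at 23.0 ± 0.782 TPM, and Rarb had 0 counts. Ppard at 45.1 ± 1.42 TPM led Pparg at 1.14 ± 0.353 TPM, and Ppara had 0 counts. Esr1, the estrogen receptor alpha, to which 4-OHT binds, was at 5.22, 5.21, 5.57 and 5.54 TPM and Esr2 was at the floor. Esrra stood at 47.7 ± 0.935 TPM, with Esrrb at the floor.

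Glycolysis was carried by 1 copy at most steps, and the enzymes from aldolase on were among the most abundant RNAs. Aldoa was at 1570.3 ± 101 TPM, Gapdh at 1246 ± 27.6 TPM, Pgk1 at 967 ± 110.0 TPM, Pgam1 at 741 ± 21.3 TPM, Eno1 at 2221 ± 139 TPM, Pkm at 1559 ± 107 TPM and Ldha at 1221 ± 98.3 TPM. Of the TPM of its family each held 99.7% or more, Pgam1 the least. The copies Gapdhs, Pgk2, Pklr and Ldhc, known from testis, liver or red cells, had 0 counts in every library. Ldhb, the heart form of lactate dehydrogenase, had 3, 0, 0 and 0 counts in replicates 1 to 4, beside 1311, 1142, 1131 and 1302 TPM for Ldha. Ldha lay higher in replicates 1 and 4 than in 2 and 3. Of the words of Pgk1 54% recur in other genes, and of those of Gapdh, Eno1, Pkm and Pgam1 between 25% and 36% do.

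The upper steps were shared by more copies. Hk3, the hexokinase of myeloid cells, was at 132, 135, 149 and 148 TPM, Hk1 at 68.1, 70.1, 75.4 and 79.5 TPM and Hk2 at 62.4, 57.4, 69.8 and 71.6 TPM. Hk3 was above both in every library, and Hk1 and Hk2 overlapped. Pfkp was at 160.1 ± 8.55 TPM, Pfkl at 63.1 ± 4.62 TPM and Pfkm at 31.3 ± 0.854 TPM, the platelet, liver and muscle forms of phosphofructokinase. The log2 lead of Pfkp over Pfkl was 1.34 per median length and 0.21 with the summed exons, so their distance depends on the length. Pfkfb3, which makes the activator of that enzyme, was at 86.6 ± 2.34 TPM and Pfkfb2 at 5.41 ± 0.640 TPM. Of the glucose carriers Slc2a3 was at 48.9, 43.3, 46.1 and 54.0 TPM and Slc2a1 at 36.2, 30.2, 28.6 and 39.1 TPM, an order that turned with the summed exon length, and Slc2a4, the carrier regulated by insulin, had 0 counts.

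Of the carriers of lactate and other monocarboxylates Slc16a3, the MCT4 gene (chr11:120948480-120960868), was at 182, 152, 146 and 179 TPM in replicates 1 to 4. Slc16a1, which encodes MCT1, was at 70.7, 71.1, 76.0 and 69.2 TPM. The 4 libraries of Slc16a3 lay above all 4 of Slc16a1, higher in replicates 1 and 4 than in 2 and 3, and it held 52.3 ± 3.6% of the TPM of the 14 carriers of the family. This lead depends on the length: in log2 it was 1.195, but 0.04 with the summed exons, 0.33 with the longest transcript and 0.30 without length, where Slc16a3 held 37.9%, 40.9% and 40.4% of the family. By the summed exons Slc16a3 and Slc16a1 were thus about level. Of those carriers 6 were expressed and 6 were at the floor. Bsg, the chaperone that brings both carriers to the membrane, stood at 373 ± 15.9 TPM and Emb, another chaperone, at 235 ± 4.88 TPM, an order that turned in counts without length. Pdk3 at 51.0 ± 2.30 TPM led Pdk1 at 28.6 ± 3.505 TPM per length, an order that turned in counts without length, and Pdk4 had 0 counts. These kinases hold back the entry of pyruvate into the mitochondrion.

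**Figure D4:**
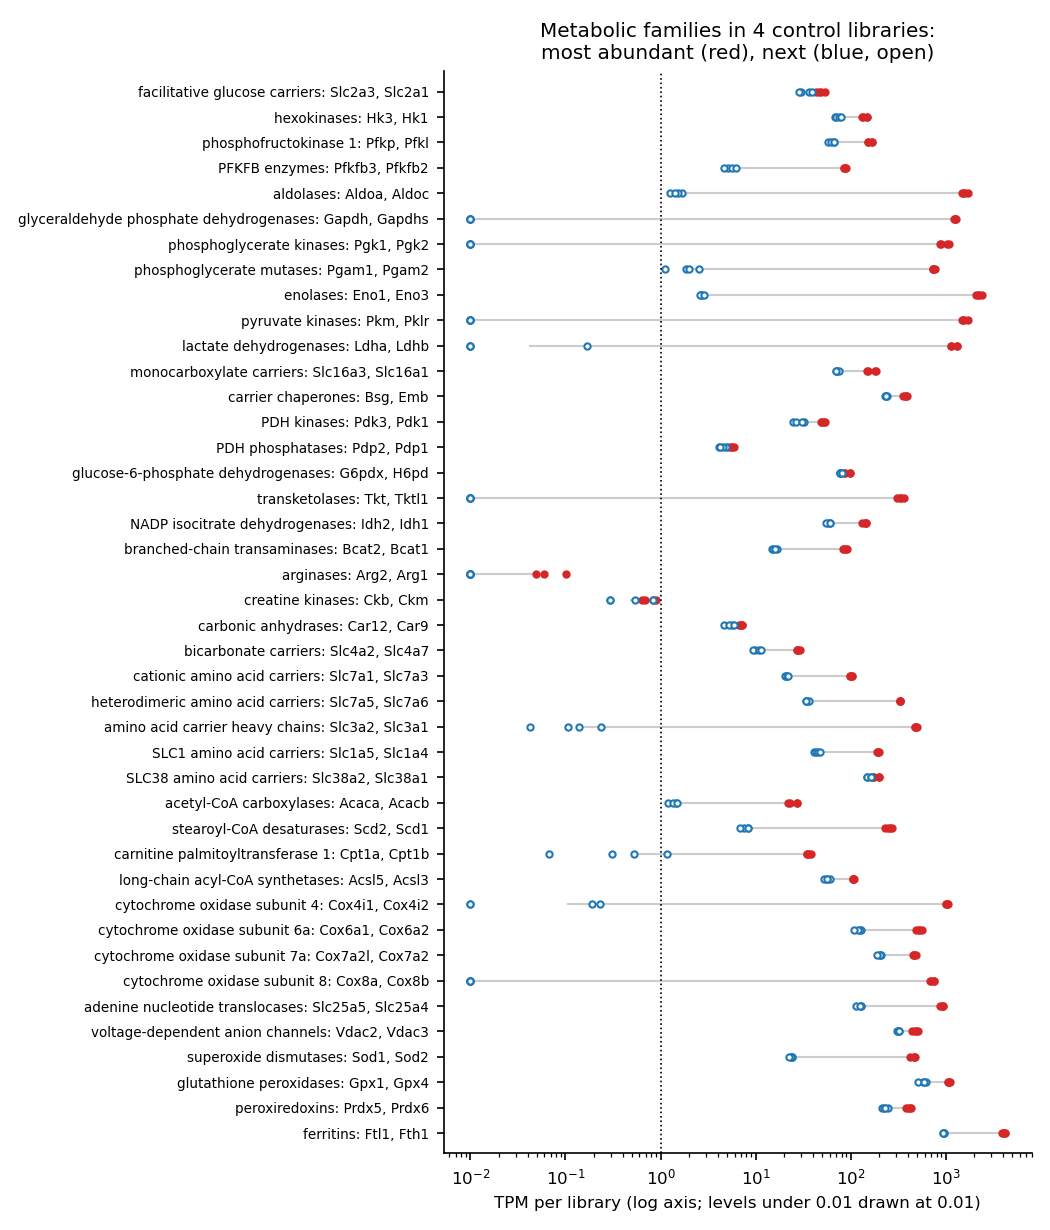
TPM in each of the 4 libraries of the most abundant (red) and the next (blue, open) member of 42 metabolic families, on a log axis, with a grey line between the means and 1 TPM dotted. From aldolase to lactate dehydrogenase the mean of the leader lies between 741 and 2221 TPM and that of the next member at 2.70 TPM or less, while most carriers have a second expressed member.

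For the handling of acid, Slc4a2, a chloride-bicarbonate exchanger, was at 27.9 ± 1.19 TPM and Slc4a7 at 10.4 ± 0.936 TPM, a log2 lead of 1.43 that was 0.47 without length. Of 13 carbonic anhydrases 3 were expressed, all low: Car12 at 7.14, 7.15, 6.67 and 6.85 TPM and Car9 at 4.64, 5.65, 5.18 and 5.98 TPM, both bound to the membrane, changed their order with the summed exon length. Car1 and Car4 had 0 counts.

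The families of amino acid carriers had clear leaders. Slc3a2, the heavy chain that carries Slc7a5 and its relatives, was at 479 ± 10.1 TPM and Slc7a5, the carrier of large neutral amino acids, at 330.1 ± 1.05 TPM, before Slc7a6 at 34.8 ± 1.251 TPM. Slc1a5, a glutamine carrier, was at 194 ± 5.30 TPM before Slc1a4 at 44.4 ± 2.99 TPM, Slc38a2 at 185.4 ± 14.8 TPM before Slc38a1 at 155 ± 9.52 TPM and Slc7a1, for arginine and lysine, at 101 ± 2.29 TPM before Slc7a3 at 21.3 ± 0.695 TPM. Arg1 had 0 counts and Arg2 was at the floor, so no arginase was detected above it. Bcat2, the mitochondrial branched-chain transaminase, was at 91.3, 84.7, 82.6 and 88.6 TPM and Bcat1, the cytosolic one, at 14.7, 15.3, 16.8 and 15.9 TPM, with no overlap.

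In the pentose phosphate pathway Tkt was at 333 ± 22.3 TPM, with Tktl1 and Tktl2 at 0 counts, and G6pdx at 92.0 ± 6.60 TPM stood above H6pd at 78.3 ± 2.34 TPM per length but not in counts. Idh2, the mitochondrial isocitrate dehydrogenase, was at 140.5 ± 5.43 TPM and Idh1, in the cytosol, at 58.7 ± 2.46 TPM. The log2 lead of Idh2 was 1.26 per median length, 0.26 with the summed exons and 0.16 without length. For lipids, Scd2 was at 258, 229, 246 and 272 TPM and Scd1, the desaturase known from liver, at 8.35, 7.46, 6.80 and 8.38 TPM. Acaca at 24.7 ± 2.76 TPM led Acacb at 1.37 ± 0.128 TPM, Cpt1a at 35.96 ± 1.62 TPM led Cpt1b at 0.515 ± 0.470 TPM and Acsl5 at 106 ± 0.941 TPM led Acsl3 at 56.7 ± 3.31 TPM.

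In the respiratory chain Cox4i1 was at 1024 ± 27.4 TPM, with Cox4i2, the form of low oxygen, at the floor, and Cox8a at 717 ± 36.7 TPM, with Cox8b and Cox8c at 0 counts. Cox6a2, the form of heart and muscle, was expressed at 127, 127, 119 and 109 TPM, below Cox6a1 at 527, 562, 487 and 517 TPM in every library. Slc25a5 led the exchangers of ADP and ATP with 912 ± 27.9 TPM over Slc25a4 with 124 ± 6.61 TPM. Vdac2 at 481 ± 28.3 TPM led Vdac3 at 316 ± 4.70 TPM, by 0.60 in log2 but 0.04 with the longest transcript. Against peroxides Gpx1 was at 1076 ± 28.4 TPM and Gpx4 at 573 ± 42.1 TPM, and Sod1 at 454 ± 25.4 TPM led Sod2 at 23.7 ± 0.766 TPM, by 4.26 in log2, 2.40 with the summed exons and 1.07 without length. Creatine kinases did not reach the limit, with Ckb at 0.765 ± 0.124 TPM, Ckm at 0.492 ± 0.257 TPM and Ckmt1 at 0 counts.

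The cell cycle and survival families had 5 clear leaders of 5. Ccnd2, a D-type cyclin, was at 686, 689, 785 and 716 TPM and Ccnd3 at 162 ± 11.6 TPM, an order that turned with the longest transcript as length. Cdk4 was at 395 ± 6.49 TPM and Cdk6, the partner kinase linked to MLL leukemia, at 141 ± 11.5 TPM, an order that turned in counts without length. Ccna2 was at 103 ± 6.07 TPM and the testis form Ccna1 at 0 counts. Mcl1 was at 241 ± 8.95 TPM and Bcl2l1 at 50.1 ± 1.29 TPM, so Mcl1 led the genes that hold back apoptosis. Lmnb1, a B-type lamin, was at 131 ± 6.46 TPM before Lmnb2 at 24.1 ± 1.13 TPM. Actb at 2739 ± 246 TPM led Actg1 at 1624 ± 103 TPM among the actins, and Tubb5 at 445 ± 35.03 TPM led Tubb4b at 224 ± 5.76 TPM among the beta tubulins.

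The libraries differed from each other in a few groups of genes. Ankrd37 was at 30.6, 14.9, 15.1 and 26.0 TPM in replicates 1 to 4, and Bnip3, a mitochondrial protein of mitophagy, at 118, 67.6, 67.0 and 113 TPM. Bhlhe40, a repressor of the clock and of oxygen responses, was at 15.9, 10.2, 12.4 and 17.0 TPM. In all 3 genes replicates 1 and 4 lay above 2 and 3, as they did for Slc16a3 and Ldha. Of the words of Bnip3 47% recur in another gene. Ogt, which attaches N-acetylglucosamine to proteins, was at 17.1, 16.8, 29.03 and 23.96 TPM and Abca13, a large transporter, at 17.6, 12.7, 19.1 and 23.0 TPM, with other orders. These 5 are among the 12 coding genes with the largest coefficient of variation at 10 TPM or more, of which several others share nearly all their words with another gene, such as Zc3h11a and Pagr1a. Nuclear coding genes with a mean of 5 TPM or more and transcripts of at least 8000 bases were 233 in number. Their median log2 deviation from the mean of the libraries was -0.02, -0.17, 0.07 and 0.12 in replicates 1 to 4. Mitochondrially encoded genes took 0.616%, 0.605%, 0.984% and 0.794% of the counts. The part of either in the differences above was not tested.

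**Figure D5:**
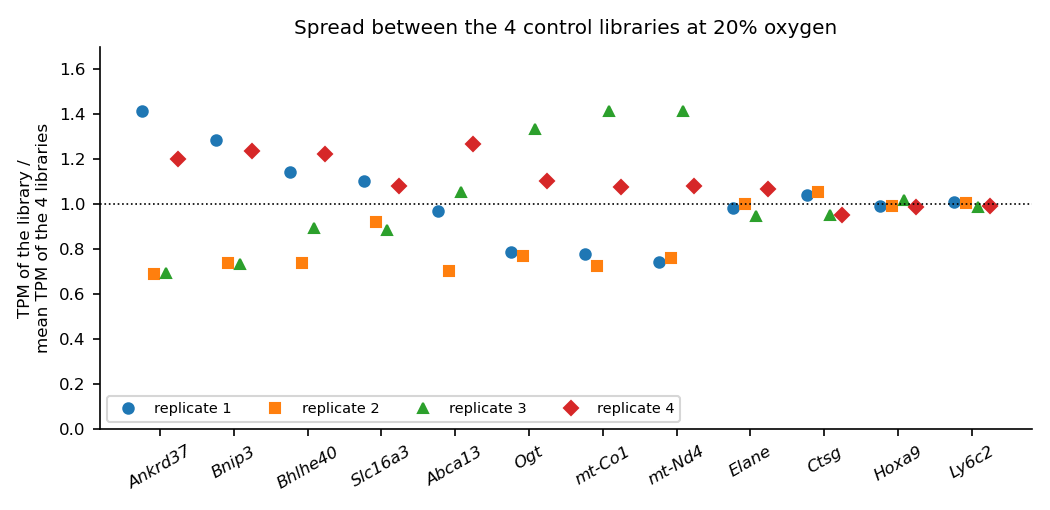
TPM of each library over the mean of the 4, for 12 genes, with 1 dotted and 1 symbol per replicate. Ankrd37, Bnip3, Bhlhe40 and Slc16a3 are higher in replicates 1 and 4, mt-Co1 and mt-Nd4 in replicates 3 and 4, and Hoxa9 and Ly6c2 lie near 1 in every library.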

How the data were processed

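Only the 4 control libraries at 20% oxygen were used. Their values are expected counts per gene, estimated by the authors and deposited as 1 table. Per the labels' protocols, poly(A) RNA was selected and NEBNext kits were used. Per the submitters' processing notes the tools were HISAT2 and RSEM with mm10. The sources used here give no versions, annotation or strand setting. About 10.4% of values had decimals.

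Each count was divided by a gene length, the median of its GENCODE vM21 basic transcripts (coding ones for coding genes), and scaled to 1000000 per library (TPM). Of 53801 identifiers 53620 matched, and the other 181 held 0.0308% of the counts. Genes sharing over 20% of their 50-base words with another gene, 3585 (16.4%) of the coding ones, are uncertain. TMM factors and the biological coefficient of variation came from edgeR 4.0.16, size factors from DESeq2 1.42.0 in R 4.3.3. The calculation was tested on counts simulated with the same gene lengths and without reads shared between genes. That test therefore does not check the choice of length or the effect of shared words.

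The 14 cell type lists, 3 further lists and 113 families, and the rule for named genes, were chosen with earlier results of these data known. The rule took the 6 markers, Slc16a3, the 30 most abundant nuclear coding genes, 5 long noncoding genes, the top 4 of each cell type list, the top 2 of each family, genes at the floor and the 12 most variable genes. Other genes named were chosen after their values were seen, such as Csf1r, S100a8, S100a9, Hoxa7, Hoxa11, mt-Co1 and mt-Nd4. Some genes that the rule takes are left out of the text. Of 713 listed genes 712 were found. Alternatives changed the gene length, scaling, threshold, counts and libraries.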

Additional observations from a re-analysis of the deposited data

Results flagged for a closer look

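Of 252 genes named with more than 3 counts in every library, and of the shares of RNA classes, 14 values had 1 library apart from the other 3, past Dixon's 95% critical value. Chance flags about 1 in 20 groups of 4.
The library that stood apart was the highest for Acvr1b in replicate 4 at 12.7 TPM against 11.8 to 11.9 TPM, Adora2a in replicate 4 at 5.71 TPM against 4.89 to 4.98 TPM and Eif2s3y in replicate 3 at 87.9 TPM against 81.6 to 82.2 TPM. The same was seen for Hoxa7 in replicate 3 at 105 TPM against 98.1 to 98.6 TPM, Hoxa9 in replicate 3 at 422 TPM against 409 to 411 TPM, Tubb5 in replicate 4 at 497 TPM against 422 to 433 TPM, mt-Co2 in replicate 3 at 1309 TPM against 1038 to 1079.5 TPM, Lck in replicate 2 at 32.5 TPM against 28.0 to 28.6 TPM and Rps12-ps3 in replicate 3 at 4015 TPM against 3739 to 3782 TPM. It was the lowest for Idh2 in replicate 3 at 132 TPM against 143 to 144 TPM, Nfe2l1 in replicate 1 at 201 TPM against 208 to 209 TPM, Slc25a4 in replicate 3 at 114 TPM against 126 to 128 TPM, Snhg12 in replicate 4 at 309.8 TPM against 337 to 341 TPM and Tlr4 in replicate 2 at 69.5 TPM against 75.3 to 76.4 TPM.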

How the results depend on the processing

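Gene length was the choice that moved the levels most. Without length, in CPM, 919 genes held 50% of the total, against 354, and without genes that share words with another gene 668 did. With at least 10 counts in all libraries 14 families had 1 member above 90%, against 34, and 0 were without an expressed member, against 4, since copies at or near 0 were left out. All other counts of genes or families stayed within 1.5 times. Of 89 log2 ratios of a leader over the next member, 5 turned with the summed exons: Slc2a3 over Slc2a1 at -0.24, Car12 over Car9 at -0.48, Irf2 over Irf8 at -0.50, Mef2c over Mef2d at -0.53 and Nfkb1 over Rela at -1.28. With the longest transcript 3 turned: Il3ra over Csf2rb at -0.12, Irf2 over Irf8 at -0.24 and Ccnd2 over Ccnd3 at -0.44. Without length 8 turned: Bsg over Emb at -0.55, Pdk3 over Pdk1 at -0.45, G6pdx over H6pd at -0.58, Prdx5 over Prdx6 at -0.32, Il3ra over Csf2rb at -1.20, S1pr4 over S1pr3 at -0.18, Irf2 over Irf8 at -0.43 and Cdk4 over Cdk6 at -0.85. Further ratios moved by more than their SD without turning, 63 with the summed exons, 45 with the longest transcript, 68 without length and 22 with an effective length of 200 bases less, which was chosen after seeing the data. Scaling by TMM or size factors and the thresholds of 0.5 and 5 TPM cannot change a ratio within a library, so they do not check these ratios. When each library was left out, 0 of the 89 ratios turned or moved. That was fixed by the rules, so it does not check these ratios either. A clear leader lies above the next member in every library, and leaving out 1 of 4 cannot shift a mean by its SD. Leaving out 1 library in turn gave 10489 to 10499 expressed coding genes, 349 to 359 genes holding 50% of the TPM and 105 to 107 clear leaders. With fewer libraries the rule for expressed genes can only keep or raise its count, and that for clear leaders is easier to meet. Cebpa lay above Cebpb without length, at 601 against 379 CPM, and without replicate 3, at 447 against 440.5 TPM, and below it in the other settings. No paired analysis was possible because only 1 group was used. Depth limits what can be said of genes at the floor.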

Other observations

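Several genes of the mitochondrial genome have a complete copy on chromosome 1, and the counting divided their reads between both. The copies were chosen after their values were seen. The first 90 bases of mt-Atp6, a subunit of the ATP synthase, and of its copy Gm10925, on the minus strand of chr1:24613974-24614651, are printed to show that a read from inside this stretch matches both.
mt-Atp6: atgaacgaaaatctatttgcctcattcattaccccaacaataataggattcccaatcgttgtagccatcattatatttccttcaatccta
Gm10925: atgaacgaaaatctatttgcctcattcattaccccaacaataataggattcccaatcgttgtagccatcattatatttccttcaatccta
Over the 678 bases of the copy 0 differ. The deposited counts gave mt-Atp6 245 ± 41.1 TPM and Gm10925 3778 ± 420 TPM (SD, n = 4). The same held for mt-Co3, at 655 ± 98.2 TPM, with 3364 ± 250.1 TPM in Gm28437, for mt-Co2, at 1117 ± 129 TPM, with 1923 ± 656 TPM in Gm28661, and for mt-Nd4l, at 89.7 ± 29.01 TPM, with 271 ± 124 TPM in Gm10222. The 7 nuclear copies took 0.395 ± 0.0284% of the counts and the 37 mitochondrial genes 0.750 ± 0.178%. Both together took 1.001%, 0.972%, 1.38% and 1.23% in replicates 1 to 4, and replicates 3 and 4 stayed above 1 and 2.

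Pseudogenes of all kinds, 12621 in number, took 6.61 ± 0.191% of the TPM and 2.19 ± 0.0823% of the counts. Replication-dependent histone genes, whose RNA lacks a poly(A) tail, took 0.0756 ± 0.00631% of the counts. Both are values of the deposited counts after poly(A) selection.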
